A study of Mus musculus with 16 samples.

Results

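This account compares 4 Trim33-low with 4 Trim33-high RNA-seq libraries of mouse embryonic stem (ES) cells, which are 8 of the 16 libraries of the series. They are the whole of the table made for Trim33, and their sides were chosen by the measured Trim33 value itself: below 5 RPKM (reads scaled by gene length and library size) is low and above 15 RPKM is high. All 16 libraries are labelled as the E14Tg2a.IV line of strain C57BL/6, and the growth protocol, which also names the line CCE, describes serum medium with LIF and no feeder cells. The 4 groups of 2 libraries were labelled wild type (WT) or Trim33 KO (knockout) and were treated for 2 h. One pair of groups received activin A at 50 ng/ml, a TGF-beta family ligand that signals through SMAD2 and SMAD3, and the other pair SB431542 at 10 µM, an inhibitor of the receptors for activin and Nodal. Trim33-low are both libraries labelled KO with activin A and both labelled WT with SB431542, and Trim33-high are both labelled WT with activin A and both labelled KO with SB431542. The labels do not describe how the knockout was made or whether 1 clone or several were used.

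TRIM33 is a chromatin protein of the TIF1 family, whose members TRIM24 and TRIM28 are its close relatives. It carries a RING-type ubiquitin ligase domain and a PHD finger and bromodomain that read histone H3 tails, and it can join SMAD2 and SMAD3 or act on SMAD4. In ES cells it is known for helping activin and Nodal signals open genes that drive mesendoderm. The Nodal genes Lefty1 and Lefty2 encode secreted inhibitors that feed back on that pathway.

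Trim33 lies at chr3:103279293-103358775 on the plus strand of mm10. It read 2.53 and 2.79 RPKM in the libraries labelled KO with activin A and 2.94 and 2.44 in those labelled WT with SB431542. The other libraries read 20.1 and 23.5 RPKM (labelled WT, activin A) and 18.3 and 24.6 (labelled KO, SB431542). These values chose the sides, so they are a description with no test: no library lay between 2.94 and 18.3 RPKM. With SB431542 the Trim33 level thus goes against both genotype labels, and only with activin A do level and label point the same way. The wild-type libraries of the Pml table stood at 13.7 and 14.2 FPKM and untreated cells at 14.8 and 16.1 RPKM, in tables normalised on their own.

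**Figure D1:**
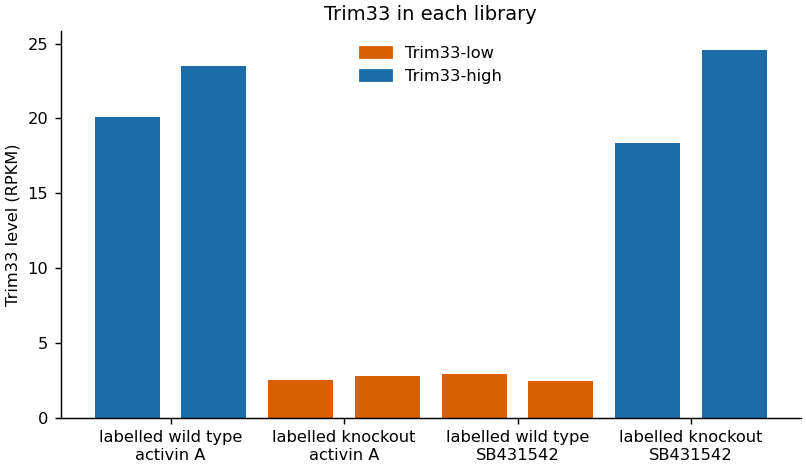
Trim33 level (RPKM, bars, 1 per library) in the 4 labelled groups of 2 libraries, coloured by the side it was sorted to. The 4 low libraries sit between 2.44 and 2.94 RPKM and the 4 high ones between 18.3 and 24.6, and in the SB431542 groups the low bars carry the wild-type label.

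The split also separates Y-linked genes, which the comparison leaves out. Eif2s3y, for example, read 38.3 to 41.0 RPKM in the high libraries and 0 to 0.143 in the low ones. A difference between cell lines other than Trim33 therefore cannot be told apart from the Trim33 level in any result given here. All 8 libraries had ES cell markers: Pou5f1 was at 811 to 946 RPKM in the low and 805 to 1019 in the high libraries, and Sox2 at 184 to 203 and 199.8 to 226. Depth recovered from the values was 31200000 to 39500000 reads per library. Separate cultures for the libraries of a group are not stated in the labels. In 7 of the 8 libraries the closest other library was the one with the same replicate number on the same side under the other treatment, not the group partner. Among genes of at least 20 RPKM, the SD of the log2 ratio was 0.118 and 0.128 for such pairs on the low side and 0.150 and 0.221 on the high side, against 0.184 to 0.293 for partners in a group. Libraries on opposite sides differed by 0.332 to 0.404. How many cultures the 4 libraries of a side stand for is not known, and p-values measure the spread among these libraries only. Counts are also given with same-numbered libraries of a side averaged, which leaves 2 against 2.

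The comparison asked which other genes differ along the Trim33 split when the treatment is taken into account. Of 11909 genes tested with limma on log2(RPKM + 1), 3768 (31.6%) passed an adjusted p of 0.05, with 2218 (18.6%) higher and 1550 (13%) lower in the low libraries. Most differences were small: 326 genes (2.74%) were called and at least 2-fold higher, and 74 (0.621%) called and at least 2-fold lower, and the median log2 difference over all genes was 0.01. The 4 low and 4 high libraries did not overlap for 3961 genes (33.3%), and 3352 (28.1%) were both called and not overlapping. With same-numbered libraries averaged, 1615 genes (13.6%) passed, 1124 (9.44%) higher and 491 (4.12%) lower, and 1606 of them were also among the 3768. Quantile normalization called 3921 genes (33.1%), 1897 (16%) higher and 2024 (17.1%) lower. Higher calls were thus 48.4% of calls, against 58.9% as deposited. Median-ratio scaling called 2232 higher and 1555 lower, so of these 2 scalings only quantile normalization moved the balance of rises and falls.

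The same split was then read within each treatment. With activin A, where labels and Trim33 go together, 1115 genes (9.36%) passed, 785 (6.59%) higher and 330 (2.77%) lower. With SB431542, where they do not, 1134 (9.52%) passed, 780 (6.55%) higher and 354 (2.97%) lower. All 3768 genes called over the 8 libraries had the same sign in both treatments, although a call over both favours such genes. The difference of the 2 contrasts passed for 0 of 11909 genes by limma, with 76 (0.638%) at an unadjusted p under 0.05. That difference is also the comparison of the genotype labels over all 8 libraries, so the labels as written separated no gene beyond the adjusted threshold. These counts depended on single libraries. With activin A, 176 genes passed without the second library labelled WT, 252 without the first, 208 without the first labelled KO and 348 without the second. With SB431542, 289 passed without the first library labelled WT, 504 without the second, and 661 without the second labelled KO.

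**Figure D2:**
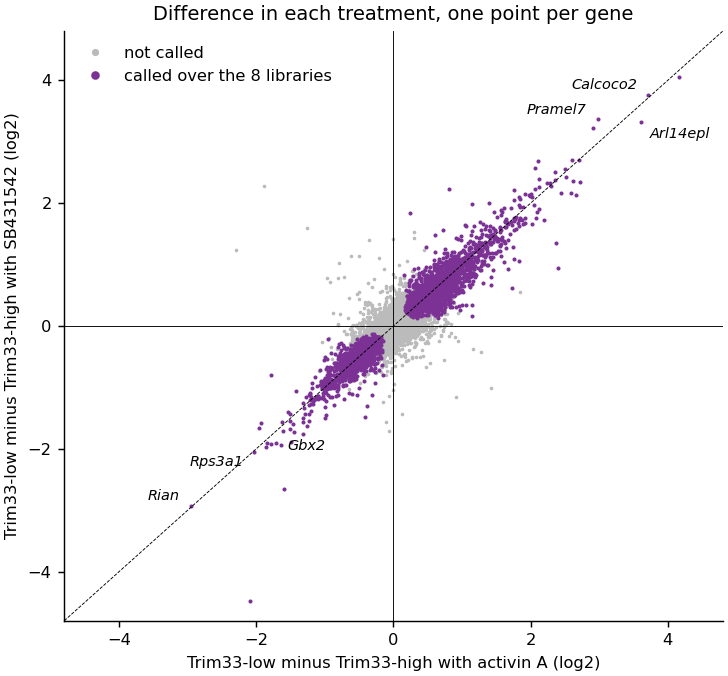
Difference of Trim33-low minus Trim33-high libraries (log2) with activin A (x) and with SB431542 (y), 1 point per gene, with the 3768 genes called over the 8 libraries in purple. The called genes lie in the 2 quadrants where both treatments have the same sign, from Rian at -2.95 and -2.93 to Calcoco2 at 3.71 and 3.76.

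The genes with the largest rises have unlike known roles, from autophagy and glycosylation to growth factor signalling and meiosis, and most were low in the Trim33-high libraries. Values below are in the order activin A replicate 1 and 2, then SB431542 replicate 1 and 2. Calcoco2 (chr11:96099326-96111964), which encodes the selective autophagy receptor NDP52, stood at 190.5, 119, 209 and 135 RPKM in the low libraries and 10.2, 10.9, 14.5 and 8.99 in the high libraries. No low library came near a high one, and the log2 difference was 3.74 ± 0.19 (SE, n = 4 a side, adjusted p = 3.96e-06 by limma). Other wild-type cells resembled the high side: Calcoco2 was at 13.3 and 14.5 FPKM in the wild-type libraries of the Pml table and 6.03 and 5.12 RPKM in untreated cells. Arl14epl stood at 59.5, 47.8, 63.05 and 47.9 RPKM in the low libraries and 5.04, 2.28, 7.18 and 2.84 in the high libraries, a difference of 3.46 ± 0.25 (adjusted p = 2.75e-05). Galnt6, an enzyme that starts mucin-type O-glycans, stood at 11.8, 15.7, 12.8 and 18.7 RPKM in the low libraries and 1.46, 0.533, 0.884 and 0.666 in the high libraries (3.06 ± 0.18, adjusted p = 9.8e-06). Only 1 of its high libraries reached 1 RPKM, so Galnt6 was tested because of the low side. Areg, which encodes the EGF receptor ligand amphiregulin, stood at 4.69, 6.47, 5.85 and 7.597 RPKM in the low libraries and 0, 0, 0.261 and 0.0994 in the high libraries. Its high libraries were at or near 0, and both wild-type libraries of the Pml table are listed at 0.

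The neighbouring genes Pramel7 and Pramel6 on chromosome 2, members of the PRAME-like family of leucine-rich repeat proteins, rose together. Pramel7 stood at 11.3, 4.24, 14.3 and 6.67 RPKM in the low libraries and 0.0324, 0, 0.101 and 0 in the high libraries. Pramel6 stood at 8.21, 3.63, 8.98 and 3.85 RPKM in the low libraries and 0.0587, 0.0832, 0 and 0.136 in the high libraries. On the low side both first replicates stood above both second replicates in each gene, while no high library exceeded 0.136 RPKM. Both genes passed the filter of 1 RPKM in at least 2 libraries through the low side only, so they had to differ. Their promoters are shown because these neighbours move together, and that of Galnt6 because no other gene among the 15 largest rises and 15 largest falls had a SMAD or FOXH1 motif in its listed promoter. They run from 250 bases before to 50 bases after the start, 5′ to 3′ (RefSeq, GRCm38.p6), and capitals mark the SMAD motif CTGTCTG.
Pramel7 (chr2:87492369-87492668, minus strand): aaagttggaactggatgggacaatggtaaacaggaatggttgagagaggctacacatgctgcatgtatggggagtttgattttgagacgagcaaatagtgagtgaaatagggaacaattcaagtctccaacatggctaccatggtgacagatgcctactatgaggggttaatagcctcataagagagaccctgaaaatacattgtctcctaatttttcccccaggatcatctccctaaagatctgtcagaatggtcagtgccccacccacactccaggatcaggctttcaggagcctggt
Pramel6 (chr2:87506315-87506614, plus strand): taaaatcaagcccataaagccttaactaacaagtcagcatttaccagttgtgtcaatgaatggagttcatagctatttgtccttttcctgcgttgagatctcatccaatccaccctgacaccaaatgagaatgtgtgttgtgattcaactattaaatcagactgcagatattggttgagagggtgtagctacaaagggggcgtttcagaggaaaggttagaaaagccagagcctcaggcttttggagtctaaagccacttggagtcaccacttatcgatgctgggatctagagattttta
Galnt6, downstream start (chr15:100720428-100720727, minus strand): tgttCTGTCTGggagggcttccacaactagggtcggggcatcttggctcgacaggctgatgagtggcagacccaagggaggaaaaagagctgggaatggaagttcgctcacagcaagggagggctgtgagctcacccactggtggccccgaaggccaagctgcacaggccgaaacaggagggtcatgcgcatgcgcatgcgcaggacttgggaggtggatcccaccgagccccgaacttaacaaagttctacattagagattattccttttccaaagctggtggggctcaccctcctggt
The Pramel7 and Pramel6 promoters hold 1 and 3 CpG, with 46% and 42% G and C, and the downstream Galnt6 promoter 10 CpG and 57.7%. At its upstream start Galnt6 had 31 CpG, 73.7% G and C and none of these motifs. Calcoco2, Arl14epl, Eps8, AF357359, Rnu73b, Spink1, Tex13, Dok2 and Sepp1 had no listed promoter, so they were not searched for motifs.

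The remaining rises of the 15 largest ran from 2.31 to 2.53 on the log2 scale and did not overlap between sides. Efr3b, a membrane scaffold of phosphatidylinositol 4-kinase, stood at 10.4, 13.8, 10.9 and 13.9 RPKM in the low libraries and 1.33, 1.25, 1.11 and 1.41 in the high libraries. Spata22, needed for meiotic recombination, stood at 16.2, 16.4, 15.3 and 14.8 RPKM in the low libraries and 1.395, 1.89, 2.19 and 2.13 in the high libraries. Klhl13, an adaptor of the CUL3 ubiquitin ligase on the X chromosome, was the most abundant of them, at 454, 368, 464 and 353 RPKM in the low libraries and 85.9, 72.1, 80.3 and 73.9 in the high libraries. The lowest low library, at 353, was over 4 times the highest high one, at 85.9. Aqp3, a water and glycerol channel, differed by 2.38 ± 0.18, Eps8, an actin regulator downstream of the EGF receptor, by 2.44 ± 0.09, and Lgals7, a galectin of stratified epithelia, by 2.40 ± 0.20. Catip, Smtnl1 and Fbp2, the muscle fructose-bisphosphatase gene, were each at or below 1.42 RPKM in every high library and at or above 4.16 in every low one. Aqp3 read 28.0 to 46.6 RPKM on the low side, untreated cells 55.7 and 42.4, and the wild-type libraries of the Pml table read 12.9 and 12.5 FPKM.

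Falls were fewer and smaller. Rian, a maternally expressed long RNA of the imprinted Dlk1-Dio3 region, stood at 0.596, 2.02, 0.693 and 1.67 RPKM in the low libraries and 17.5, 14.6, 14.1 and 16.3 in the high libraries (-2.94 ± 0.21, adjusted p = 2.37e-05). Its values in other wild-type cells were higher than on either side, at 35.4 and 38.9 FPKM in the wild-type libraries of the Pml table and 69.7 and 79.9 RPKM in untreated cells. Rps3a1, a ribosomal protein gene with near-identical copies that can share its reads, stood at 463, 564, 489 and 566 RPKM in the low libraries and 2086, 2100, 2459 and 1929 in the high libraries (-2.04 ± 0.11). Here the high libraries stand apart from other wild-type cells, which read 425 and 473 FPKM in the wild-type libraries of the Pml table and 425 and 433 RPKM in untreated cells. Rnu73b, a small RNA whose gene lies inside Rps3a1, differed by -2.12 ± 0.21, and the small RNA AF357359 by -3.28 ± 0.49. Both differed less with activin A (-1.59 and -2.09) than with SB431542 (-2.65 and -4.47), though the difference between treatments did not pass. Rnu73b read 0 to 2.435 RPKM on the low side, which is few reads for so short a gene. AF357359 is listed at 0 in both wild-type libraries of the Pml table but at 190 and 260 RPKM in untreated cells, so other wild-type cells differed widely. Slc27a2, which activates very long-chain fatty acids, stood at 4.67, 6.51, 4.32 and 5.44 RPKM in the low libraries and 21.9, 21, 19.3 and 23.5 in the high libraries (-1.85 ± 0.12). Gbp2, an interferon-induced GTPase gene, differed by -1.87 ± 0.29, the trypsin inhibitor gene Spink1 by -1.92 ± 0.14, Dok2, an adaptor below tyrosine kinases, by -1.69 ± 0.15, and Polr3gl, an RNA polymerase III subunit, by -1.79 ± 0.17. Glyatl3 (-1.82), Tex13 (-1.75), Tspyl2 (-1.65), Sepp1 (-1.59), the selenoprotein P gene, and Tchh (-1.59), the trichohyalin gene, complete the 15 with Gbx2, described with the pluripotency genes.

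**Figure D3:**
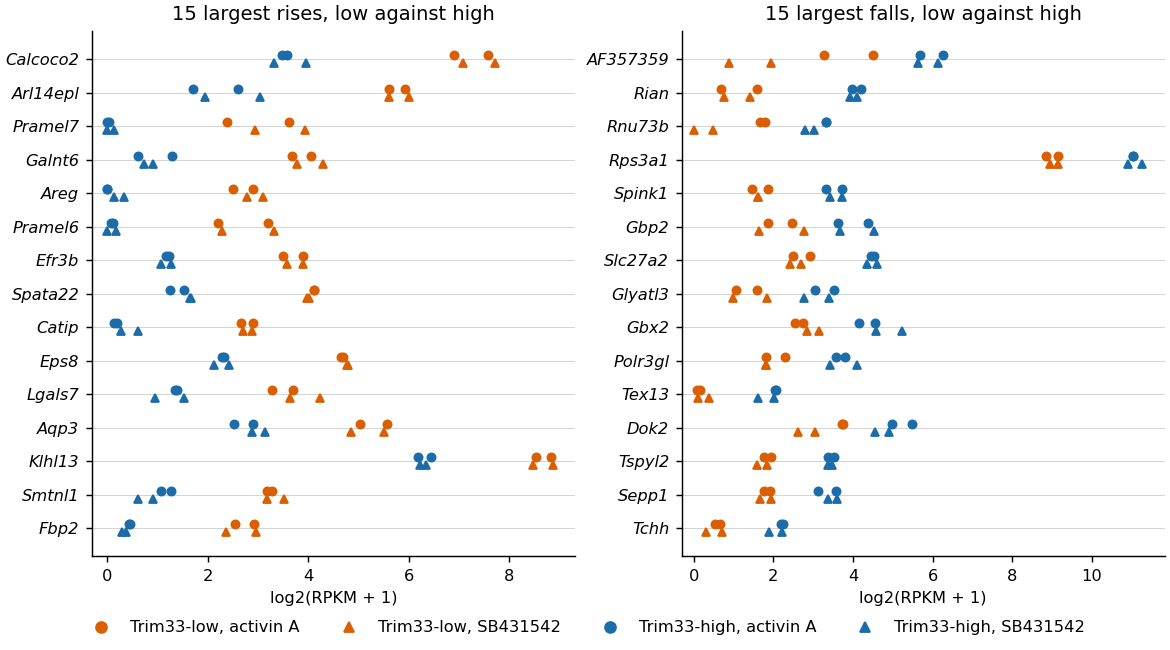
Levels (log2 of RPKM + 1) of the 15 genes with the largest rise (left) and the 15 with the largest fall (right), 1 symbol per library, orange for Trim33-low and blue for Trim33-high, circles for activin A and triangles for SB431542. Orange and blue do not overlap in any row, which the choice of these genes requires, and Calcoco2 and AF357359 head the panels.

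The 2-fold higher genes were placed unevenly along the genome. Of 309 with a position, 98 (31.7%) had another 2-fold higher gene within 100 kb, against 894 of 11469 genes of any kind (7.79%). For 2-fold lower genes it was 8 of 70 (11.4%) against 1.4%. How many of these genes passed the filter through 1 side only was not counted. On a wider scale, 4 stretches chosen after seeing the values stood above the rest: chromosome 8, chromosome 6 beyond 110 Mb, chromosome 11, and the X chromosome up to 30 Mb. On chromosome 8, 374 of 635 genes (58.9%) were called higher and 12 (1.89%) lower, and the median difference was 0.38, a factor of 1.30. Distal chromosome 6 had 132 of 189 (69.8%) higher and a median of 0.51, and the proximal X chromosome 62 of 76 (81.6%) and a median of 0.81, a factor of 1.75. Chromosome 11 had 379 of 1002 (37.8%) higher and a median of 0.24, with 10 Mb bins from -0.01 to 0.43. The other 10007 genes had a median of -0.03, with 12.7% called higher and 14.9% lower. Among them the X chromosome beyond 30 Mb stood lower, with the medians of its 10 Mb bins from -0.33 to -0.08.

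The shifts had the same sign in every library of a side. Relative to each gene's mean, the median on distal chromosome 6 was 0.24 to 0.26 in the 4 low libraries and -0.28 to -0.25 in the 4 high ones, and on the proximal X chromosome 0.37 to 0.43 against -0.43 to -0.38. On chromosome 11 the high libraries were less even, at -0.16 and -0.17 in the first replicates and -0.10 and -0.079 in the second ones. Before the boundary on chromosome 6, the 10 tested genes up to Edem1 (start at base 108828641) had a median of -0.33. The 10 from Rad18 (start at base 112619850) on had 0.49. On the X chromosome the last 10 before the boundary, up to Wdr44 (start at base 23693051), had 1.02. The next 10, from Dock11 (start at base 35888832), had -0.02. No tested gene with a position starts within either gap, so how sharp the steps are cannot be read. Set beside untreated cells of the arsenite table, and relative to the other genes, the low libraries stood 0.37 higher on chromosome 8, 0.48 on distal chromosome 6 and 0.79 on the proximal X chromosome, while the high libraries stood at -0.02, -0.03 and 0.06. On chromosome 11 both sides were above untreated cells, by 0.47 and 0.21. The number of copies of these chromosomes was not tested. The 4 stretches hold 16% of the genes tested, 42.7% of the 2218 called higher and 34.4% of the 326 that were 2-fold higher, but 3.61% of those called lower and 0 of the 74 that were 2-fold lower. Without them 2648 of 10007 genes (26.5%) passed, 1224 (12.2%) higher and 1424 (14.2%) lower. Gene groups below are also counted after centring each library on its 10 Mb bins, which removes such shared shifts. That calls 2753 of 11332 genes (24.3%), 1459 (12.9%) higher and 1294 (11.4%) lower. Of the 15 largest rises, Klhl13 lies on the proximal X chromosome, Eps8 on distal chromosome 6, and Calcoco2 and Spata22 on chromosome 11. Klhl13 differed by 2.37 as deposited and by 1.43 with bins centred, and Eps8 by 2.44 and 1.78. Calcoco2 differed by 3.74 and 3.44, and Spata22 by 2.53 and 2.29. Each of them still passed with bins centred. Brackets after the counts of a gene list give its rises and falls with same-numbered libraries averaged and then with bins centred. They are to be read against the 18.6% of all genes called higher and 13% called lower (averaged 9.44% and 4.12%, centred 12.9% and 11.4%). Of 204 list members called, 25 passed the filter through 1 side only, with the other side below 1 RPKM throughout, so that they had to differ. Outside the Zscan4 group those named here are Evx1, Plac1, Gata1, Col1a2 and Sfrp5 among the rises and Fgf5, Tdrd1, Meg3, Mirg, Sox1, Map2 and Dcn among the falls. Among the 15 largest rises Areg, Pramel7, Pramel6, Catip and Fbp2 were below 1 RPKM in every high library. Among the 15 largest falls Tex13 and Tchh were below 1 RPKM in every low library. These genes also had to differ, and they are among the 326 and 74 called 2-fold genes. Galnt6 reached 1 RPKM in only 1 high library, so it too passed the filter through the low side. List members with 1 such library on the other side are not in the count of 25.

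**Figure D4:**
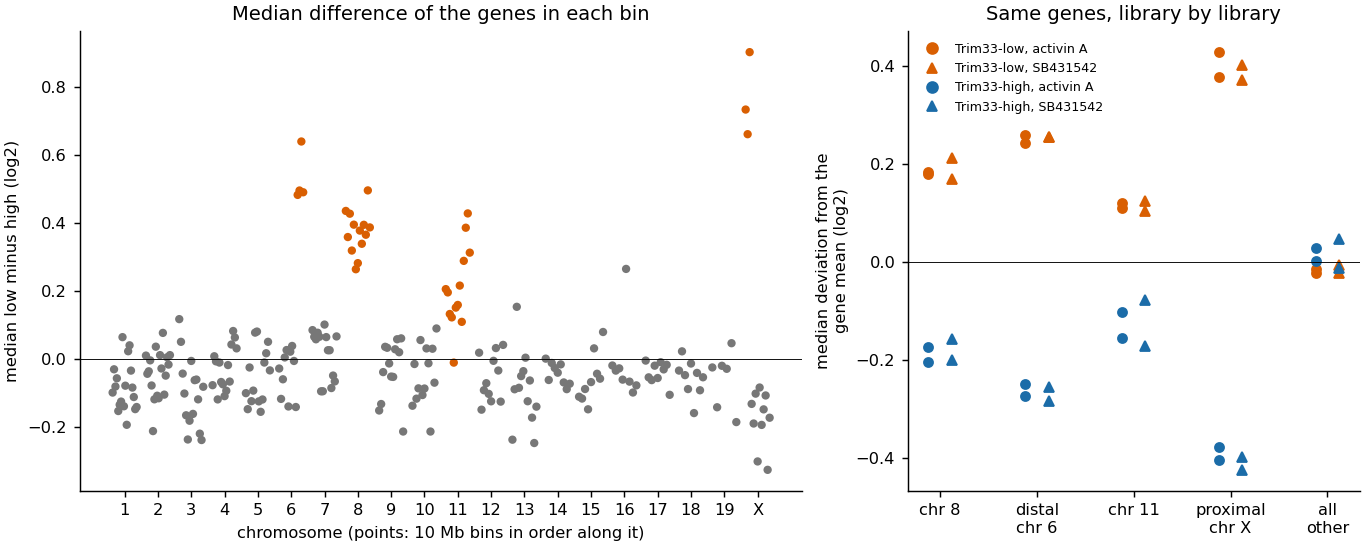
Left, median difference of Trim33-low minus Trim33-high libraries (log2) in 10 Mb bins of at least 10 genes, in order along each chromosome, with the 4 stretches in orange. Right, the median deviation from the gene mean (log2) in each library for each stretch and for all other genes, where the 4 low libraries lie above 0 and the 4 high ones below it on every stretch.

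Genes of naive pluripotency, the ground state of the inner cell mass, were mostly higher on the low side. Of 15 tested, 9 rose and 4 fell (averaged 7 up and 1 down, centred 5 up and 2 down), with a median of 0.72 against 0.01 over all genes. Fbxo15, an F-box gene bound by OCT4 and SOX2, stood at 201, 133, 216 and 132 RPKM in the low libraries and 64.1, 50.2, 82.1 and 47.05 in the high libraries (1.47 ± 0.21, adjusted p = 0.000935). Zfp42, the marker known as Rex1, stood at 90.2, 80.8, 94.3 and 76.7 RPKM in the low libraries and 41.6, 30.9, 45.2 and 32.4 in the high libraries (1.18 ± 0.13). Both sides were far under the wild-type cells of the other tables for Zfp42, at 404 and 376 FPKM in the wild-type libraries of the Pml table and 628 and 609 RPKM in untreated cells. Tcl1, an AKT coactivator, differed by 1.15 ± 0.14, the T-box gene Tbx3 by 1.26, the nuclear receptor gene Nr5a2 by 1.12, Prdm14 by 0.80, Dppa3 by 0.89 and Klf2 by 0.72. Gbx2, a homeobox gene of the LIF response, went the other way, at 5.69, 4.81, 7.92 and 6.14 RPKM in the low libraries and 22.5, 16.6, 36.4 and 23 in the high libraries (-1.81 ± 0.16, adjusted p = 6.86e-05), as did Klf4 (-0.62), Klf5 (-0.45) and Tfcp2l1 (-0.41). Zfp42, Klf2, Dppa3 and Sox15 lie on the stretches above. With bins centred Klf2 (0.35), Dppa3 (0.38), Sox15 (0.13), Prdm14 (0.77) and Tfcp2l1 (-0.25) no longer passed, and with libraries averaged Prdm14, Klf4, Klf5, Tfcp2l1 and Sox15 did not. Among 12 core factors (averaged 2 up and 0 down, centred 0 up and 2 down) 2 rose, Nanog at 321, 233, 263 and 167 RPKM in the low libraries and 152, 118, 119 and 67.2 in the high libraries (1.12 ± 0.21) and Dppa2 (0.60), and 2 fell, Lin28a (-0.24) and Tdgf1 (-0.46). Nanog lies on distal chromosome 6, and its difference was 0.61 with bins centred (adjusted p = 0.0538 by limma). Dppa2 was then at 0.33 (adjusted p = 0.0613), so that no core factor rose, and with libraries averaged Lin28a and Tdgf1 did not pass.

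Genes of the formative and primed states, which follow naive pluripotency, passed only as falls: of 13 tested, 7 fell and 0 rose (averaged 0 up and 6 down, centred 0 up and 8 down), with a median of -0.54. Dnmt3b, a de novo DNA methyltransferase gene, stood at 82.3, 80.04, 80.98 and 75.3 RPKM in the low libraries and 150.0, 148, 136 and 160.4 in the high libraries (-0.89 ± 0.07, adjusted p = 4.83e-05). No low library reached a high one. Pou3f1, the gene of OCT6, stood at 4.68 to 9.93 RPKM in the low libraries against 14.8 to 30.6 in the high ones (-1.58), Otx2 at 2.96 to 5.35 RPKM in the low libraries against 6.75 to 10.4 in the high ones (-0.85), Lin28b at 8.15 to 9.04 RPKM in the low libraries against 15.3 to 19.8 in the high ones (-0.92) and Grhl2 at 3.55 to 3.92 RPKM in the low libraries against 7.996 to 8.64 in the high ones (-0.97). Fgf5 was low on both sides (0.38 to 0.475 and 0.794 to 1.27 RPKM).

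Among LIF and FGF signalling genes falls outnumbered rises. Of 13 LIF-STAT3 targets 7 fell and 0 rose (averaged 0 up and 2 down, centred 1 up and 7 down), with a median of -0.32. The kinase gene Pim1 stood at 59.2, 50.05, 44.9 and 32.9 RPKM in the low libraries and 118, 87.8, 71.4 and 54.3 in the high libraries (-0.79 ± 0.14), and Junb (-0.67), Pim3 (-0.52), Stat3 (-0.32) and Cish (-0.45) fell too. Pim3, Stat3 and Cish did not pass with libraries averaged. Of 20 FGF-ERK feedback and immediate early genes 8 fell and 3 rose (averaged 0 up and 6 down, centred 2 up and 8 down). The feedback inhibitors Spred1 (-1.18 ± 0.11), Spry4 (-0.81 ± 0.14), Dusp6 (-0.74 ± 0.10) and Spry2 (-0.43 ± 0.06) fell, while Etv5 rose by 0.33 and Ier2 and Dusp4, both on chromosome 8, by 0.37 and 0.43. None of these 3 rises passed with libraries averaged, and Ier2 (0.037) and Dusp4 (0.15) did not with bins centred. In the WNT group of 19, 4 fell and 3 rose (averaged 1 up and 4 down, centred 1 up and 4 down): Lef1 (4.46, 3.38, 2.72 and 3.21 RPKM in the low libraries and 14.3, 11, 12.3 and 9.78 in the high libraries), Sp5 (-1.30), the receptor gene Fzd7 (-1.10) and T (-1.44), the brachyury gene, fell, and Sfrp1 (1.002), Axin2 (0.80) and Sfrp5 (0.47) rose. Axin2 (0.40 with bins centred) and Sfrp5 (0.41) passed under neither alternative.

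Calls among activin and Nodal genes went both ways. Among 18 ligands, receptors, SMADs and cofactors, 2 rose and 3 fell (averaged 2 up and 0 down, centred 1 up and 2 down). The ligand gene Nodal stood at 61.2, 58.1, 58.2 and 48.5 RPKM in the low libraries and 42.95, 41.2, 34.9 and 28.4 in the high libraries (0.61 ± 0.10, adjusted p = 0.00149), and Gdf3, on distal chromosome 6, differed by 0.64, but by 0.13 with bins centred (adjusted p = 0.397). The co-receptor gene Tdgf1 (-0.46) and the corepressor genes Tgif1 (-0.44) and Ski (-0.30) fell, none of them with libraries averaged, nor Tgif1 with bins centred. Smad2 (0.06), Smad3 (-0.03), the partner gene Foxh1 (0.19) and Smad4, at 13.3 to 17.8 RPKM in the low libraries against 13.9 to 16.4 in the high ones, did not pass. Among 12 targets 2 rose and 3 fell (averaged 1 up and 2 down, centred 2 up and 3 down). Lefty1 stood at 191, 248, 7.05 and 14.7 RPKM in the low libraries and 296, 373, 17.4 and 30.6 in the high libraries (-0.85 ± 0.24, adjusted p = 0.0222). Within each treatment both low libraries were under both high ones, and the treatment moved it far more, by a factor of 20.2 on the low and 14.0 on the high side, so Lefty1 gives the treatment labels of all 8 libraries. Lefty2 stood at 59.1, 109.7, 22.3 and 65.2 RPKM in the low libraries and 128, 196, 13.7 and 34.8 in the high libraries (-0.10 ± 0.46, adjusted p = 0.896). With activin A both low libraries were under the high ones, and with SB431542 the sides overlapped. Fgf15 fell (-1.01) and the receptor gene Ephb2 rose (0.52), though not with libraries averaged. Of 15 BMP-SMAD genes 3 rose and 0 fell (averaged 2 up and 0 down, centred 3 up and 1 down): the target gene Id3 (120.2, 111, 169 and 127 RPKM in the low libraries and 78.1, 68.4, 111 and 63.7 in the high libraries), Msx2 (1.21) and the decoy receptor gene Bambi (0.57), which did not pass with libraries averaged. Of 15 Eph receptors and ephrins (averaged 1 up and 2 down, centred 3 up and 3 down) 3 rose, among them Epha4 (1.03), and 3 fell, among them Epha1 (-1.17) and Epha2 (53.9, 51.8, 23.4 and 19.6 RPKM in the low libraries and 140.0, 109, 50.5 and 43.5 in the high libraries).

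The Zscan4 group, which marks a small share of ES cells that resemble the two-cell embryo, was detected on the low side and close to absent on the high side. Of 16 listed genes 11 passed the filter on low values, all through the low libraries, so that they had to differ. Summed over the list, the level was 10.04 to 26.3 RPKM in the low libraries and 0.373 to 0.822 in the high ones. Zscan4c stood at 2.92, 1.27, 2.33 and 1.28 RPKM in the low libraries and 0, 0, 0 and 0.0786 in the high libraries. Zscan4d stood at 3.57, 1.13, 3.69 and 1.94 RPKM in the low libraries and 0, 0.0965, 0 and 0 in the high libraries. For Tcstv1 the 4 low libraries read 2.43, 1.54, 2.05 and 0.785 RPKM and the 4 high ones are listed at 0. In these genes both first replicates were above both second replicates on the low side. The Zscan4 copies are near-identical, so single genes are uncertain. In bulk libraries, more such cells and more RNA per cell cannot be told apart.

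Germline and imprinted genes went both ways. Of 22 germline genes 8 rose and 3 fell (averaged 7 up and 1 down, centred 5 up and 3 down). Dazl, an RNA-binding regulator of germ cells, stood at 10.1, 5.83, 9.54 and 5.87 RPKM in the low libraries and 2.32, 1.65, 3.29 and 1.68 in the high libraries (1.44 ± 0.22), and the X-linked homeobox genes Rhox5 (0.93), Rhox9 (0.86) and Rhox6 (0.66) rose, while Ddx4 (-0.58), Tdrd1 (-0.56) and Sycp3 (-0.42) fell. Tdrd1 and Sycp3 did not pass with libraries averaged. Of 31 imprinted genes 9 rose and 8 fell (averaged 8 up and 5 down, centred 10 up and 6 down). The neighbours H19, Igf2, Cdkn1c and Phlda2 on distal chromosome 7 all rose. The maternally expressed RNA H19 stood at 142, 52.6, 140.5 and 55.4 RPKM in the low libraries and 28.4, 21.8, 29.6 and 23.2 in the high libraries (1.74 ± 0.33), and the growth factor gene Igf2 at 49.9, 16.3, 49.8 and 16.1 RPKM in the low libraries and 12.6, 9.96, 10.8 and 10.4 in the high libraries (1.31 ± 0.37). In both, the first low replicates were alike across treatments and far above the second ones. Cdkn1c, a cell cycle inhibitor gene, stood at 20.4, 22.4, 19.3 and 19.6 RPKM in the low libraries and 7.197, 9.37, 6.44 and 6.49 in the high libraries (1.36 ± 0.10). Phlda2, which restrains placental growth, stood at 100.2, 127, 105 and 115 RPKM in the low libraries and 39.9, 46.7, 51.5 and 37.97 in the high libraries (1.33 ± 0.12). For these the 4 low libraries were close to each other. In the Dlk1-Dio3 region Rian, Meg3 (0.0712 to 0.217 RPKM in the low libraries against 0.982 to 1.64 in the high ones) and Mirg (0.0195 to 0.239 RPKM in the low libraries against 0.964 to 1.999 in the high ones) fell and the coding gene Dlk1 did not pass (0.47). Gnas (-0.84) and Nnat (-0.75) fell.

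Markers of other lineages were counted to see which cell types the libraries could hold. Of 14 trophectoderm genes tested 8 rose and 0 fell (averaged 4 up and 0 down, centred 6 up and 0 down), and the list summed to 205 to 300.3 RPKM in the low and 161 to 220.5 in the high libraries. Hand1 stood at 13.5, 5.11, 10.9 and 3.71 RPKM in the low libraries and 1.38, 1.06, 1.37 and 1.08 in the high libraries (1.92 ± 0.32), and Krt7 (1.08), Plac1 (1.000), Gata3 (0.92) and Gata2 (0.84) rose, Gata3 and Gata2 not with libraries averaged. The defining gene Cdx2 was at 0.855 to 1.26 and 0.5 to 1.52 RPKM, and Elf5 was at most 0.398 in all 8. Of 16 fibroblast and smooth-muscle genes 5 rose and 2 fell (averaged 2 up and 0 down, centred 3 up and 1 down), with sums of 449 to 756 and 490.0 to 528. Col1a2 stood at 9.12, 2.102, 7.93 and 1.35 RPKM in the low libraries and 0.855, 0.791, 0.7 and 0.892 in the high libraries. Col1a1 stood at 3.597 to 27.4 RPKM in the low libraries against 2.100 to 3.21 in the high ones, with the first replicates of the low side above the second. Neither passed with libraries averaged, and Col1a1 did not with bins centred (adjusted p = 0.0763 by limma). Col3a1, the fibrillar collagen gene often expressed with them, was at most 0.694 RPKM in all 8. Of 11 primitive endoderm genes 2 rose, Col4a1 (1.02) and Sparc (0.68) (averaged 2 up and 0 down, centred 0 up and 0 down), neither of them with bins centred, and the sums were 583 to 616 and 518 to 661. Their regulator Sox17 was at or below 0.204 RPKM and Ttr at 0 in all 8.

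Of 9 neural genes (averaged 3 up and 3 down, centred 3 up and 3 down) 3 rose, Tubb3 (1.10), Nefm (1.42) and Nefl (0.44), and 3 fell, Sox1 (-0.67), Map2 (-0.67) and Olig2 (-0.61), with sums of 319 to 361 and 229 to 281 RPKM. Of 6 blood and endothelial genes (averaged 2 up and 0 down, centred 1 up and 0 down) 2 rose, Pecam1, an adhesion molecule that ES cells also carry, at 44.4, 34.1, 41.1 and 33.4 RPKM in the low libraries and 16.2, 14.6, 14.9 and 15.6 in the high libraries, and Gata1 (0.80), on the proximal X chromosome, with sums of 44.5 to 54.8 and 23.9 to 25.6. With bins centred Gata1 was at 0.049 and no longer passed. The globin genes Hba-a1 and Hba-x were at 0 in all 8. Of 7 mesendoderm genes (averaged 1 up and 1 down, centred 1 up and 1 down) Evx1 rose (0.87) and T fell, at 1.45, 3.16, 0.594 and 2.198 RPKM in the low libraries and 4.42, 9.85, 4.34 and 8.04 in the high libraries, with sums of 9.38 to 18.9 and 11.5 to 22.5. The part of other cell types in the gene differences was not tested. Of 10 mesenchymal regulators 4 rose and 0 fell (averaged 1 up and 0 down, centred 2 up and 1 down). Of 15 collagens and laminins 4 rose and 1 fell (averaged 2 up and 1 down, centred 2 up and 1 down). Of 18 junction genes 1 rose and 4 fell (averaged 1 up and 3 down, centred 1 up and 6 down), among them Cldn6 (-0.85) and Epcam (-0.51). Of 15 annexins and S100 proteins 4 rose and 3 fell (averaged 3 up and 0 down, centred 5 up and 0 down), led by Anxa2, a membrane-binding annexin, at 107, 85.3, 109 and 82.1 RPKM in the low libraries and 31.9, 24.9, 34.6 and 25.4 in the high libraries (1.68 ± 0.14). None of the 3 annexin and S100 falls passed under either alternative. Of 13 IGF-related genes 3 rose and 0 fell (averaged 2 up and 0 down, centred 2 up and 0 down).

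Glycolytic and hypoxia-inducible genes were mostly lower on the low side. Of 21 tested 12 fell and 2 rose (averaged 1 up and 6 down, centred 2 up and 11 down), with a median of -0.36. Pdk1 encodes a kinase that inhibits pyruvate dehydrogenase. It stood at 18.3, 17.5, 19.9 and 21.8 RPKM in the low libraries. In the high libraries it stood at 55.7, 50.2, 57.6 and 57.8 RPKM (-1.47 ± 0.07, adjusted p = 3.52e-06 by limma). The 4 low libraries lie between 17.5 and 21.8 RPKM and the 4 high ones between 50.2 and 57.8. Bnip3 (-0.90), Egln3 (-0.997), the glucose transporter gene Slc2a1 (-0.72), Pgk1 (-0.62), Aldoa (-0.54) and Ldha (-0.51) fell, while Pfkp (0.72) and Hk1 (0.56) rose. Aldoa, Ldha and Hk1 did not pass with libraries averaged. The list summed to 3583 to 3789 RPKM in the low libraries and 4568 to 5246 in the high ones, without overlap.

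Of 20 cell cycle genes 8 fell and 2 rose (averaged 2 up and 3 down, centred 3 up and 9 down). The G1 cyclin gene Ccnd1 stood at 48.9, 51.02, 51.1 and 49.96 RPKM in the low libraries and 105, 91.95, 89.1 and 82.1 in the high libraries (-0.85 ± 0.08). Ccne1 stood at 123, 123, 121 and 129 RPKM in the low libraries and 173, 169, 173 and 173 in the high libraries (-0.47 ± 0.06). Mycn (-0.52), Myc (-0.62), Cdk4 (-0.44) and Cdk6 (-0.41) fell too, though Mycn, Cdk4 and Cdk6 not with libraries averaged nor Mycn with bins centred, and the inhibitor genes Cdkn1c (1.36) and Cdkn2a (0.93) rose. The proliferation marker Mki67 did not pass (-0.11). In the other metabolic and stress groups calls were mixed. NRF2 targets had 6 lower and 3 higher of 21 (averaged 2 up and 4 down, centred 1 up and 6 down): G6pdx (-1.12), Srxn1 (-0.92), Gclc (-0.60) and Txnrd1 (-0.54) fell, and the 3 that rose, Nqo1 (0.58), Hmox1 (0.70) and Gsr (0.32), all lie on chromosome 8. With bins centred Hmox1 (0.33) and Gsr (0.052) no longer passed. G6pdx, on the X chromosome beyond 30 Mb, was then at -0.78 and still passed. Cholesterol synthesis had 6 lower and 3 higher of 23 (averaged 1 up and 1 down, centred 2 up and 6 down), with Ebp on the proximal X chromosome at 29.5, 31.3, 29.96 and 29.8 RPKM in the low libraries and 10.04, 10.3, 11.99 and 8.96 in the high libraries (1.47 ± 0.09). The p53 targets had 6 lower and 2 higher of 21 (averaged 1 up and 1 down, centred 2 up and 6 down). ATF4 targets had 1 lower and 2 higher of 20 (averaged 2 up and 1 down, centred 1 up and 1 down). Interferon and MHC class I genes had 5 lower and 1 higher of 21 (averaged 0 up and 2 down, centred 1 up and 6 down). Of 7 metallothionein and zinc transport genes Mt2, on chromosome 8, rose (0.64) and 0 fell (averaged 0 up and 0 down, centred 0 up and 0 down). Mt2 passed under neither alternative (0.23 with bins centred).

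**Figure D5:**
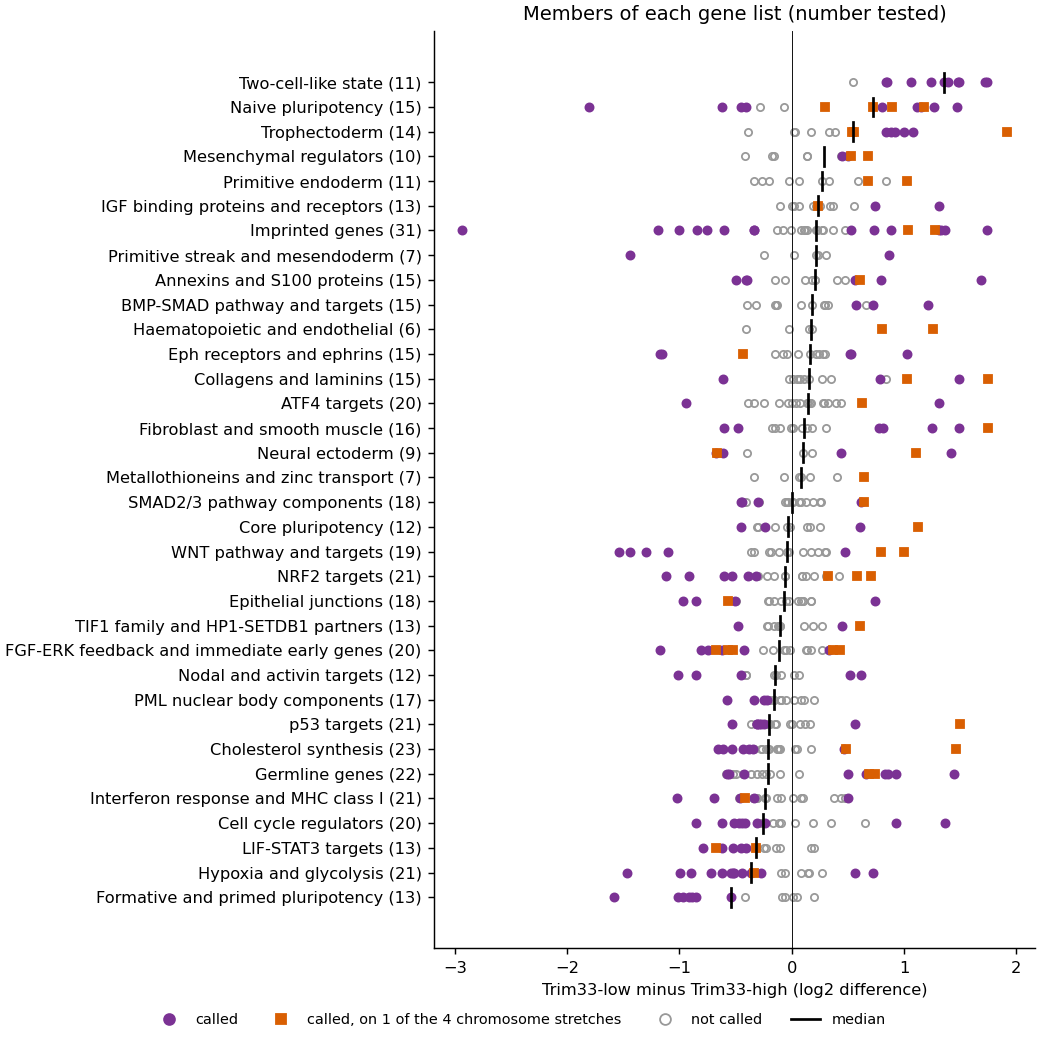
Difference of Trim33-low minus Trim33-high libraries (log2) for every tested member of 34 gene lists, with the number tested in brackets and the median as a bar; filled symbols passed and orange squares lie on 1 of the 4 chromosome stretches. Formative genes have no filled symbol above 0, and hypoxia and glycolysis genes sit mostly below it.

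The relatives of Trim33 did not pass the test. Trim24 stood at 43.04, 37.8, 46.01 and 35.5 RPKM in the low libraries and 38, 32.4, 37.05 and 33.6 in the high libraries (0.19 ± 0.10, adjusted p = 0.172) and Trim28 at 733, 618, 738 and 576 RPKM in the low libraries and 633, 479, 638 and 467 in the high libraries (0.27 ± 0.14, adjusted p = 0.161). Trim66, below the filter, was at most 0.175 RPKM in all 8. Of 13 TIF1 and HP1-SETDB1 genes tested 2 rose and 1 fell (averaged 0 up and 1 down, centred 1 up and 2 down): Uhrf1, which recruits maintenance DNA methylation, by 0.45 ± 0.13, Atf7ip, a SETDB1 partner on distal chromosome 6, by 0.61 ± 0.20, and Cbx3, the HP1 gamma gene, by -0.48 ± 0.07, at 107, 113, 109.5 and 109.7 RPKM in the low libraries and 153, 164, 142 and 156 in the high libraries. With bins centred Atf7ip was at -0.051 and no longer passed, and with libraries averaged neither rise passed. Of 17 genes of PML nuclear bodies 4 fell and 0 rose (averaged 0 up and 1 down, centred 0 up and 2 down). Pml stood at 20.2, 23.1, 21.6 and 24.8 RPKM in the low libraries and 35.6, 29.2, 33.3 and 38.3 in the high libraries (-0.58 ± 0.10, adjusted p = 0.00175), below every high library, and Usp7 (-0.33) and Pias2 (-0.22) were among the others that fell, but neither passed with bins centred or with libraries averaged. Both sides were under other wild-type cells, which had Pml at 49.9 and 45.1 FPKM in the wild-type libraries of the Pml table and 54 and 51.5 RPKM in untreated cells.

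Within 1 Mb of Trim33, 13 genes were tested, of which 4 fell and 0 rose where 13% of all genes fell, with a median of -0.32 and a range from -0.55 to 0.15. Those that fell were Dclre1b (-0.55 ± 0.10), Bcas2 (-0.43 ± 0.10), Phtf1 (-0.37 ± 0.12) and Nras (-0.32 ± 0.07). Sike1 (0.03), also in that window, did not pass. With bins centred Dclre1b and Nras still passed, and with libraries averaged none of the 4 did (adjusted p from 0.0606 to 0.179 by limma).

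Promoters of the 2-fold genes were read for base composition and motifs. Of the 326 higher genes 210 had a RefSeq promoter, with a median of 10 CpG in 300 bases against 22 over 9000 tested genes. For base composition a gene with several starts was counted by its start with the most CpG. At most 5 CpG were found in 60 of the 210 (28.6%), against 5.34% of the 9000 and 9 of 57 (15.8%) lower genes. The higher genes were also less expressed, with a median of 4.74 RPKM against 9.75, and the part of level in this was not tested. The SMAD motif CAGACAG (or CTGTCTG on the other strand) was in 19 of 210 (9.05%), against 2 of 57 (3.51%) lower genes, 7.57% of tested genes and 7.73% of all 32851 promoters. The palindrome GTCTAGAC was in 0 of 210 and 0 of 57, against 0.278% of tested genes. The FOXH1 motifs AATCCACA and AATACACA were in 1 of 210 each and in 1 and 0 of 57, against 0.611% and 0.722%.

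Levels in the other tables were set beside both sides, as a description only, since each table was normalised on its own. Of the 326 genes at least 2-fold higher on the low side, untreated cells lay nearer to the high libraries for 217 (66.6%) and the wild-type cells of the Pml table for 188 (57.7%). Of the 74 at least 2-fold lower, 32 (43.2%) and 42 (56.8%) lay nearer to the high libraries, so for these genes the other tables leaned to opposite sides. The same share over all genes tested was not counted.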

How the data were processed

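RNA-seq libraries of the Trim33 table, 8 in number, were analysed with the sides set by the Trim33 value of each library. The authors deposited this table without naming a unit, and its values behave as RPKM: 84.1% to 89.4% of values under 20 reads came out as whole reads within 0.05. The authors named the arsenite table RPKM and the Pml table FPKM when they deposited them. The submitters' processing notes list, without roles, build mm10 and the tools Bowtie2 2.3.3, featureCounts 2.0.1, SAMtools 1.9, DESeq2 and FastQC 0.11.5. The strand setting of the counting is not given there. Depth, recovered from 2494 single-exon genes, made 1 RPKM equal to 31.2 to 39.5 reads per kilobase, and precision at low levels is limited by it.

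Of 24421 gene names 27 that read as dates were left out. Genes at 1 RPKM or more in at least 2 of the 8 libraries were kept, without Trim33 and 4 Y-linked genes (Eif2s3y, Ddx3y, Uty, Kdm5d). Values were taken as log2(RPKM + 1), which understates changes of low genes, and fitted with limma 3.58.1 in R 4.3.3 (trended variance, treatment as covariate, two-sided p adjusted by Benjamini-Hochberg over every gene in the fit, threshold 0.05). Differences are log2 of low minus high, with standard errors. Contrasts within a treatment and their difference came from a fit of 4 group means. The scripts were tested on simulated data. Named are Trim33 and its relatives, Lefty1 and Lefty2, the 15 largest called rises and falls without overlap, up to 4 members of each of 34 lists with the smallest p, and genes within 1 Mb of Trim33. Further list members are examples picked after their values were seen. Gene lists were counted, not tested as sets. The members and lists were chosen with earlier results of these data known. Gene positions are from a GENCODE annotation on GRCm38 (mm10), and 440 tested genes had none. Promoters are from RefSeq. Figures were drawn with matplotlib 3.10.9.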

Additional observations from a re-analysis of the deposited data

How the results depend on the processing

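The count of 3768 genes stayed within 1.5 times under another pseudocount (3759), no filter on low values (3979), a filter of at least 4 libraries (3563), median-ratio scaling (3787), quantile normalization (3921), no variance trend (3691), no treatment covariate (3910) and 4 group means (3124). Leaving out each library in turn gave 2781 to 4004 genes, 1711 to 2201 of them higher and 1052 to 1803 lower. The activin A libraries alone, with fewer samples, gave 1846 genes, 1201 higher and 645 lower, and the SB431542 libraries alone 599, 447 higher and 152 lower.

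A set of alternatives was chosen after seeing the data. Averaging same-numbered libraries, 2 against 2, gave 1615 genes, 1124 higher and 491 lower. Centring 10 Mb bins gave 1459 higher genes, and 611 genes with activin A and 616 with SB431542, and leaving out the 4 stretches, which hold 947 of the 2218 higher calls, 1224 higher genes. With bins centred Atf7ip turned to -0.051 and Igf2bp1 to -0.0625.

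Leaving out 1 library gave 176 to 1542 genes for the activin A contrast and 289 to 1030 for the SB431542 contrast. For the difference between treatments it gave 0 to 1 gene, and no filter on low values gave 1; the cause was not tested. Of the 148 named genes that passed, the call was lost for 33 with libraries averaged, 70 of 144 with SB431542 alone, 30 of 146 with activin A alone, 19 of 144 with bins centred (and 2 turned), and 4 to 15 without single libraries.

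Replicate numbers recur in all 4 groups, but the labels do not say that a number marks a shared culture. In 7 of 8 libraries the closest library had the same number and side, and the exception was WT with activin A replicate 1, closest to its group partner. With the replicate block 4391 genes passed, 2496 higher and 1895 lower, 1575 with activin A and 1547 with SB431542, and no named gene lost its call.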
